A study of Mus musculus with 16 samples.

Results

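The CHD (chromodomain helicase DNA-binding) genes Chd1 to Chd9 encode a family of chromatin remodellers. They were followed here in whole-brain RNA-seq of adolescent mice that drank nicotine, ethanol, both or neither. The family was selected on the Chd2 counts, because Chd2 was among the genes with the strongest difference between mice with and without ethanol. The other 8 members came in by their name alone. All 9 members were found among the 24062 genes of the count table, and all 9 passed the filter on low counts in each of the 8 comparisons below.

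CHD proteins use the energy of ATP to slide, evict or space nucleosomes, and they are built around a pair of chromodomains, which can bind methylated histone tails, and an ATPase motor of the SNF2 type. Chd1 and Chd2 also carry a DNA-binding domain and act at transcribed genes. Chd3, Chd4 and Chd5 carry PHD fingers and are the alternative motors of the NuRD complex, which joins remodelling to histone deacetylation. Chd6, Chd7, Chd8 and Chd9 form the remaining group, which carries BRK domains. In the brain the family is known from human disorders: loss of one copy of CHD2 causes a childhood epilepsy, of CHD7 the CHARGE syndrome, and of CHD8 a form of autism.

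The 16 mice were female C57BL/6J, an inbred strain, killed on postnatal day 45, and each whole brain with its cerebellum gave 1 library. WW mice had water throughout. NW mice had nicotine freebase at 200 µg/ml as their drinking fluid for 22 h a day, and water in the drinking-in-the-dark sessions. Mice of the Water-Ethanol group, which the plots label with its initials, had water outside the sessions and 20% v/v ethanol in those sessions, in which 1 tube is offered early in the dark phase. NE mice had the nicotine solution and the ethanol sessions. Sessions ran on 4 days, for 2 h each and for 4 h on the last, after which the brain was taken. Nicotine drinking began before the first session, and the nicotine bottles were off the cages during each session. Each group held 4 mice, and intake was voluntary, so that each mouse set its own dose.

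The libraries held 27100352 to 32880979 counts per mouse, and the ribosomal transcript Rn45s took 0.274 to 3.9% of them, with its highest share in NW mouse 10. A pair of libraries stood apart in their content of cerebellum. The summed CPM (counts-per-million, with library sizes scaled by the TMM factors of edgeR) of 10 genes of cerebellar granule neurons were 349 in WW mouse 21 and 481 in NW mouse 10, against 942 to 1176 in the other 14 mice. All 10 of these markers were detected in every mouse, so no defining marker was at 0. Neither library with little cerebellar signal came from an ethanol group, so results that rest on them are given below with and without both mice.

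Chd2, the member that led to the family, encodes a remodeller that deposits the histone variant H3.3 at active genes. It lies on the minus strand at chr7:73426652-73541746 (GRCm38) and has 39 exons. In the WW mice Chd2 stood at 86.1, 85.6, 85.9 and 83.3 CPM. In the NW mice it stood at 86.0, 86.7, 90.7 and 83.2 CPM. In the Water-Ethanol mice the values were 106, 99.5, 111 and 99.3 CPM. In the NE mice they were 111, 102, 109 and 105 CPM. All 8 mice with ethanol lay above all 8 mice without it, with the lowest at 99.3 CPM and the highest of the mice without ethanol at 90.7 CPM.

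Since this difference chose the family, it is given as a description with no test. Chd2 was 1.22-fold higher in Water-Ethanol than in WW (log2 fold change 0.29, SE 0.0418). It was 1.26-fold higher in NE than in WW (0.33, SE 0.0375) and 1.23-fold higher in NE than in NW (0.30, SE 0.0457) on the same log2 scale. In a fit of all 16 mice, the mean difference between mice with and without ethanol was 0.30 (SE 0.0304), and Chd2 had rank 1 of 15592 genes by p-value there. Of all 15592 genes, 0.443% had all 8 ethanol mice above all others. By p-value Chd2 had rank 4 for Water-Ethanol against WW, rank 2 for NE against WW and rank 1 for NE against NW. All these ranks come from the ethanol differences that chose the family, so they are no support. In whole-brain RNA, a change in the share of cells that use a gene and a change of its RNA within cells cannot be told apart. Of the 14 lists of cell type markers, 4 held genes called in the ethanol effect: 2 of 6 microglia, 1 of 7 oligodendrocyte and 1 of 6 astrocyte genes were lower and 1 of 6 choroid plexus genes was higher. Over all genes, 1.56% were called lower and 2.94% higher there. The summed CPM of the microglia list ran from 170 to 207 with ethanol and from 185 to 245 without, that of oligodendrocytes from 6451 to 7886 and from 6995 to 8369, that of astrocytes from 1552 to 1691 and from 1496 to 1813, and that of choroid plexus from 618 to 749.6 and from 479 to 785. All 4 sums overlapped, no gene of these lists was at 0 in any mouse, and their part in the CHD values was not tested.

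The comparisons with nicotine played no part in the choice of Chd2, and no difference was detected in them. Ethanol was on offer up to the end of the last session, while nicotine had been absent for those 4 h. Both drugs were thus read at unlike times after exposure, a limit that the paper also gives. NW and WW overlapped (log2 fold change 0.02, SE 0.0419, adjusted p = 0.912, edgeR's quasi-likelihood test with Benjamini-Hochberg adjustment over all genes tested, as throughout). NE and Water-Ethanol overlapped as well (0.03, SE 0.0438, adjusted p = 0.911). Over all 16 mice the nicotine effect on Chd2 was 0.03 (SE 0.0304, adjusted p = 0.811). The interaction, that is the difference between the ethanol responses with and without nicotine, was 0.02 (SE 0.0607, adjusted p = 0.982). The paper reports that NE mice drank more ethanol in the last session, and had higher blood ethanol, than Water-Ethanol mice. Nicotine and ethanol dose thus cannot be told apart in NE against Water-Ethanol, nor fully in the nicotine effect and the interaction.

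**Figure D1:**
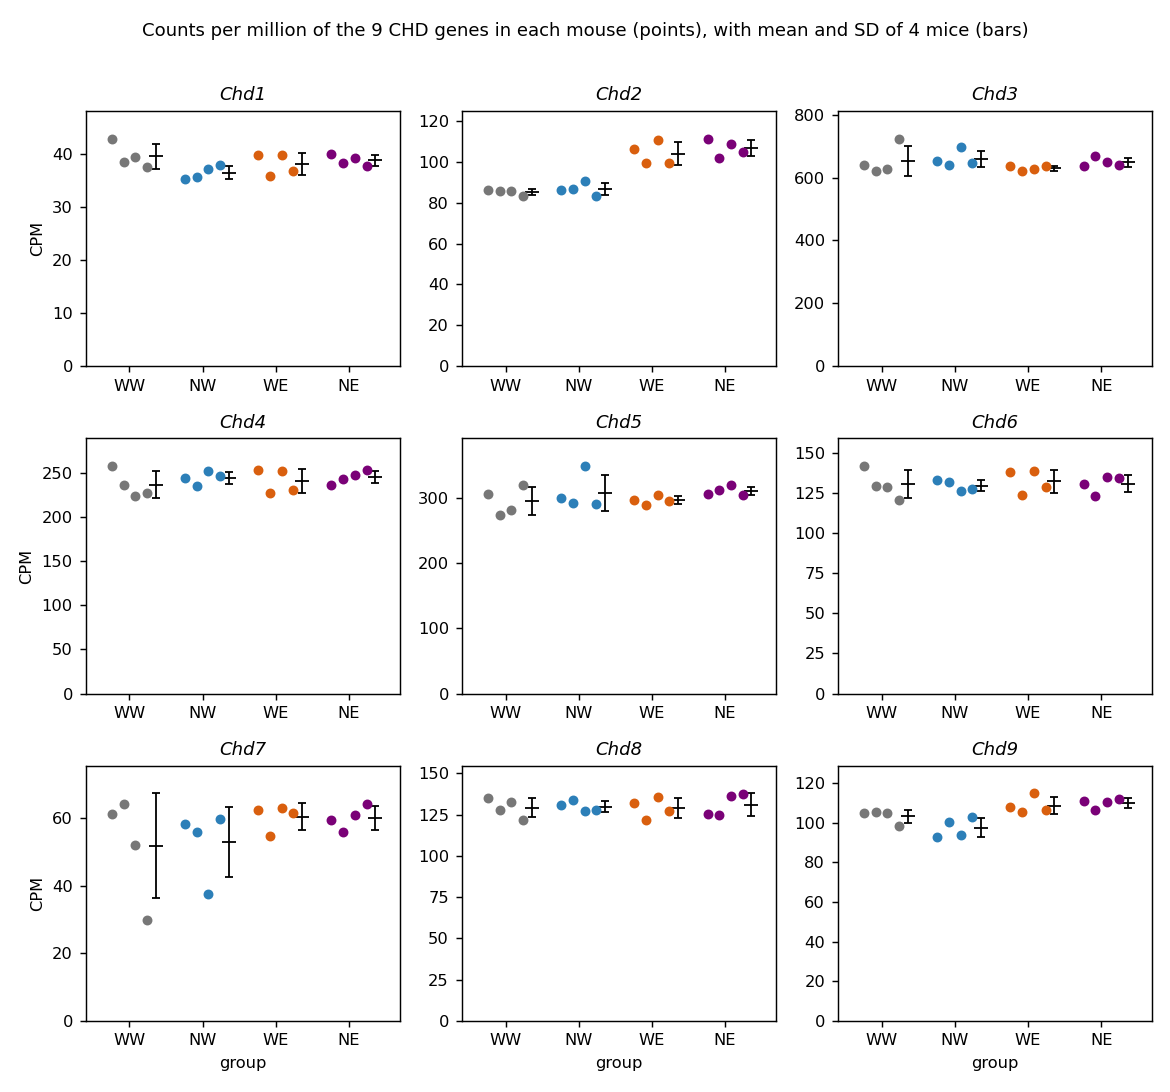
CPM of each CHD gene, 1 panel per gene with its own axis from 0, for the 4 groups of 4 mice (points), with group mean and SD (bars). The Chd2 values of the 8 mice with ethanol (99.3 to 111 CPM) lie above those of the 8 without (83.2 to 90.7 CPM), and the low Chd7 points are WW mouse 21 and NW mouse 10.

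The long noncoding RNA gene 1810026B05Rik (Chaserr) overlaps the start of Chd2 and reaches upstream of it, and its RNA is known to hold back Chd2 expression from the same chromosome. It is read from the minus strand at chr7:73539798-73558395, and 634 of its exon bases also belong to Chd2 exons, so reads there cannot be assigned with certainty. No other CHD gene shared exon bases with a listed gene. The FPKM table of the authors gives Chd2 a span that runs to the start of Chaserr, so its FPKM may hold reads of both. No promoter entry was at hand for Chd2 itself. The 250 bases before the start of Chaserr, chr7:73558396-73558645 on the minus strand (RefSeq start, GRCm38.p6), are shown because they lie before the regulator nearest to Chd2. Capitals mark the GC box GGGCGG, the binding motif of Sp-family factors, searched on both strands.

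Chaserr upstream: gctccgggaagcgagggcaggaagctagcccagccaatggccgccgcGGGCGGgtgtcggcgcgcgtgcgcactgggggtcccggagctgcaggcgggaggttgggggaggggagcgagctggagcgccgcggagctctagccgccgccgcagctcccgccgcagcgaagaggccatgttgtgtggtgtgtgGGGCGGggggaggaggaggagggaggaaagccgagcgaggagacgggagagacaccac

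This stretch and the 50 bases that follow it held 2 GC boxes, 30 CpG dinucleotides and 72.3% G or C. Over 32851 such windows of 300 bases from all RefSeq starts, 35.7% held a GC box, the median CpG count was 7 and the median G or C content 52.7%. Neither the E-box CACGTG, present in 7.15% of windows, nor the cyclic AMP response element TGACGTCA, present in 1.79%, occurred in this one. Both letter strings read the same on either strand.

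The RNA itself was scarce. 1810026B05Rik stood at 14.4, 14.3, 12.8 and 12.6 CPM in WW and at 10.2, 11.1, 12.7 and 10.9 CPM in NW. It ran from 12.9 to 14.2 CPM in Water-Ethanol and stood at 14.2, 10.7, 13.4 and 11.8 CPM in NE. Its values overlapped between mice with ethanol (10.7 to 14.2 CPM) and without (10.2 to 14.4 CPM), unlike those of Chd2.

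The ethanol effect on 1810026B05Rik was 0.10 on the log2 scale (SE 0.0605, adjusted p = 0.336). Its nicotine effect was -0.20 (SE 0.0605, unadjusted p = 0.00323, adjusted p = 0.250), with 5 of the 8 nicotine mice below all 8 mice without nicotine. In NW against WW it was -0.27 (SE 0.0836, adjusted p = 0.350). None of these passed the adjusted threshold of 0.05, and 0 of 15592 genes did for nicotine (10.3% had an unadjusted p under 0.05, and DESeq2 called 98).

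The nearest tested genes on either side overlapped between mice with and without ethanol. Rgma, a membrane-bound guidance cue for axons, ends 6753 bases from Chd2. It ran from 51.7 to 63.2 CPM with ethanol and from 52.6 to 62.5 CPM without (ethanol effect 0.03, SE 0.0343, adjusted p = 0.678). Fam174b, which encodes a membrane protein and lies 198561 bases beyond the far end of Chd2, ran from 36.5 to 41.6 CPM with ethanol and from 33.9 to 38.6 CPM without. For Fam174b 5 of the 8 ethanol mice lay above all 8 others, and its ethanol effect was 0.12 (SE 0.0395, unadjusted p = 0.00618, adjusted p = 0.0815).

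**Figure D2:**
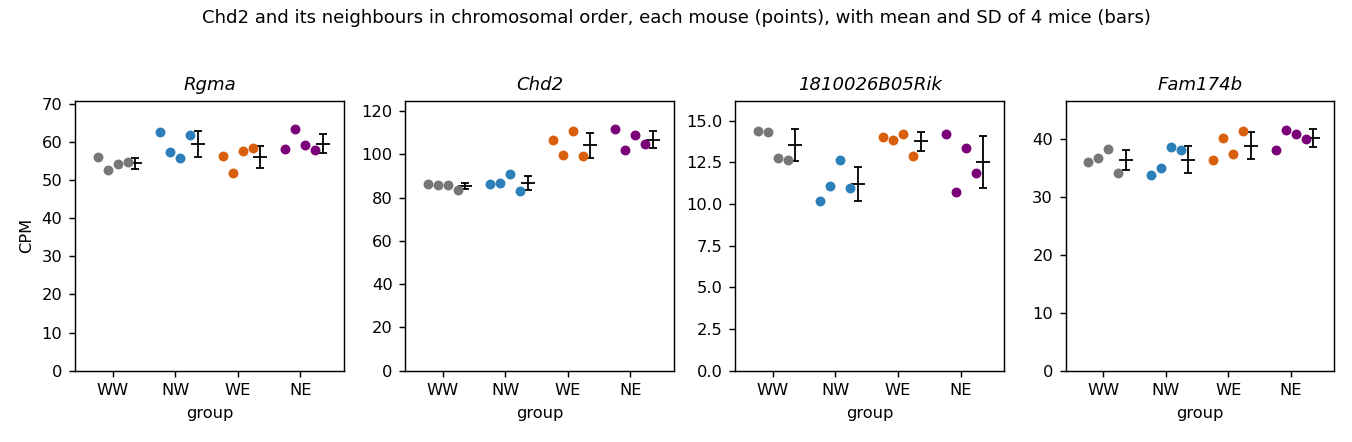
CPM of Chd2, its overlapping noncoding neighbour 1810026B05Rik and the nearest tested genes Rgma and Fam174b, in chromosomal order, for 4 mice per group (points) with mean and SD (bars), each axis from 0. The groups with and without ethanol are apart for Chd2 (lowest with ethanol 99.3, highest without 90.7 CPM) and overlap for the other three genes.

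Chd1, the closest relative of Chd2 and a reader of methylated histone H3, showed no detected difference with ethanol. It stood at 42.9, 38.5, 39.4 and 37.5 CPM in WW and at 35.2, 35.7, 37.1 and 38.0 CPM in NW. It stood at 39.8, 35.8, 39.9 and 36.9 CPM in Water-Ethanol and at 39.9, 38.2, 39.3 and 37.7 CPM in NE. The groups overlapped in every comparison. The ethanol effect was 0.02 (SE 0.0357, adjusted p = 0.786), which is smaller than its own error. The lowest estimate for Chd1 was -0.12 in NW against WW (SE 0.0552, adjusted p = 0.596), and its interaction of 0.15 (SE 0.0714, adjusted p = 0.740) was the highest among the 9 members.

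The motors of NuRD, the highest members on FPKM, differed little between groups. Chd3 ran from 619 to 724 CPM, and its top values were those of WW mouse 21 (724 CPM) and NW mouse 10 (697 CPM). Chd4, the motor of NuRD in most tissues, ran from 225 to 258 CPM. Chd5, the form enriched in neurons, ran from 274 to 350 CPM, again with NW mouse 10 (350 CPM) and WW mouse 21 (320 CPM) at or near the top. The ethanol effect was -0.03 for Chd3 (SE 0.0324, adjusted p = 0.550), 0.02 for Chd4 (SE 0.0339, adjusted p = 0.763) and 0.01 for Chd5 (SE 0.0399, adjusted p = 0.898). Without WW mouse 21 and NW mouse 10 the ethanol effect was 0.01 for Chd3 (adjusted p = 0.874) and 0.06 for Chd5 (adjusted p = 0.167).

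Chd3 and Chd5 were also the members whose NE and Water-Ethanol mice did not overlap. Chd5 stood at 306, 312, 320 and 306 CPM in NE and at 298, 289.6, 304 and 295 CPM in Water-Ethanol. Chd3 stood at 637, 667, 650 and 641 CPM in NE and at 636, 620, 626 and 636 CPM in Water-Ethanol. All 4 NE mice were above all 4 Water-Ethanol mice for both genes, by a small margin for Chd3. The estimates were 0.07 for Chd5 (SE 0.0323, adjusted p = 0.834) and 0.04 for Chd3 (SE 0.0314, adjusted p = 0.868). Of all 15319 genes, 2.04% had NE mice above every Water-Ethanol mouse, and 0% passed the adjusted threshold in edgeR (888, or 5.8%, had an unadjusted p under 0.05, and DESeq2 called 2).

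Chd9, a member of the group with BRK domains first described in cells of the bone lineage, passed the test in the ethanol effect. It stood at 105, 105, 105 and 98.5 CPM in WW and at 93.0, 100.4, 93.9 and 103 CPM in NW. It stood at 108, 105, 115 and 106 CPM in Water-Ethanol and at 111, 106, 110.3 and 112 CPM in NE. Of the 8 mice with ethanol, 7 lay above all 8 mice without it. The means were 109 ± 3.39 CPM with ethanol and 100.4 ± 4.90 CPM without (SD, n = 8 each).

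The ethanol effect on Chd9 was 0.13 (SE 0.0295, adjusted p = 0.0221, fold 1.09). In that comparison 4.5% of the 15592 genes passed the threshold, 2.94% in the higher direction, and 1 of the 8 members other than Chd2 did so. In the single comparisons Chd9 did not pass: NE was 0.17 above NW (SE 0.0447, adjusted p = 0.219) and 0.09 above WW (SE 0.0360, adjusted p = 0.218), without overlap in either. Of all genes, 4.13% had NE wholly above NW and 5.17% had NE wholly above WW. Water-Ethanol was 0.08 above WW with overlap (SE 0.0396, adjusted p = 0.307). The interaction was 0.10 (SE 0.0590, adjusted p = 0.795).

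The call on Chd9 was lost without Water-Ethanol mouse 15 (0.11, adjusted p = 0.0523) and without NE mouse 4 (0.12, adjusted p = 0.0518). It held without WW mouse 21 and NW mouse 10 (0.11, SE 0.0302, adjusted p = 0.0417) and with the granule score as a covariate (0.11, SE 0.0289, adjusted p = 0.0333), at a lower estimate than with all mice. This score is the mean over the 10 granule genes of log2 CPM, each gene centred on its mean over all mice.

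Chd9 lies on the plus strand at chr8:90828835-91054508 and has 40 exons. The 250 bases before its first listed start, chr8:90828585-90828834 (RefSeq, GRCm38.p6), are shown because Chd9 was the tested member that passed, with the GC box in capitals as it reads on the opposite strand (CCGCCC).

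Chd9 upstream: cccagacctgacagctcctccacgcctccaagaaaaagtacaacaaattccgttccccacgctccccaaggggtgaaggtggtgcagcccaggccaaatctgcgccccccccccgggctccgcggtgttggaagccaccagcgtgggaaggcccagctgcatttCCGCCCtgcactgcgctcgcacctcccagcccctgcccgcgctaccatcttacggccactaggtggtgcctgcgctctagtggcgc

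With the following 50 bases this window held 1 GC box, 19 CpG dinucleotides and 65.7% G or C, and neither an E-box nor a cyclic AMP response element. RefSeq promoter windows were at hand for 5 of the 9 members, Chd4, Chd5, Chd6, Chd8 and Chd9, in 8 windows, of which the 2 of Chd4 and the 2 of Chd5 overlap and share GC boxes. Each of the 8 windows but that at the internal start of Chd9 held a GC box, where 35.7% of all windows did. The member windows with a box held 57.0 to 71.3% G or C, against a median of 52.7% over all windows, and base content was not allowed for. The window at the internal start of Chd9 had 1 CpG and 34.7% G or C. No window of a member held an E-box or the cyclic AMP response element.

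**Figure D3:**
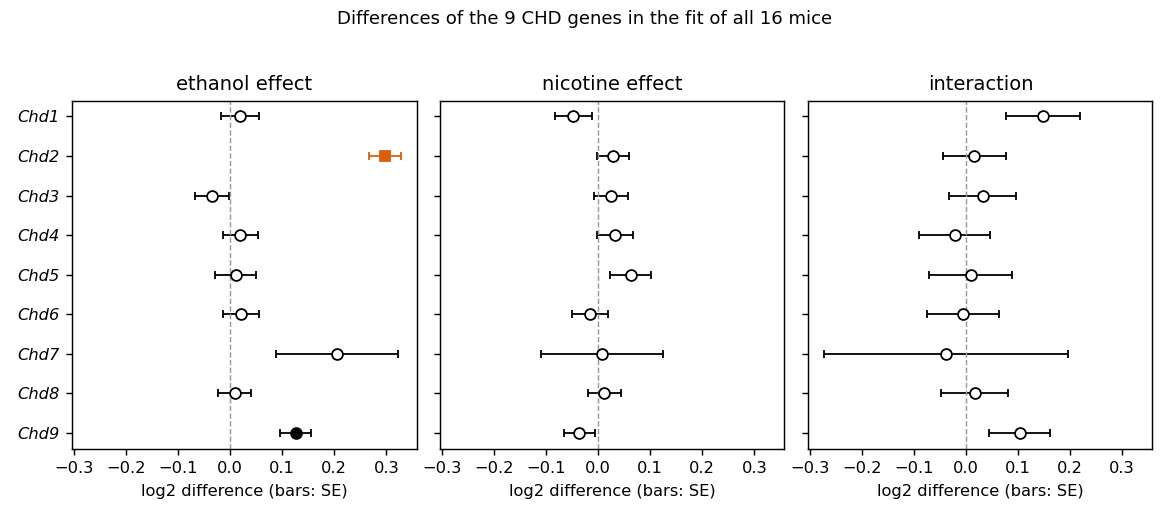
Log2 differences of the 9 CHD genes from the fit of all 16 mice (points, with SE as bars) for ethanol, for nicotine and for their interaction. Filled circle: adjusted p under 0.05 (Chd9, 0.13). Open circles: not called. The orange square is Chd2 (0.30), shown as a description because this difference chose the family.

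Chd6, which is linked to the oxidative stress response, and Chd8, which restrains beta-catenin signalling, were level across the groups. Chd6 ran from 121 to 142 CPM and its ethanol effect was 0.02 (SE 0.0345, adjusted p = 0.746). Chd8 ran from 122 to 138 CPM and its ethanol effect was 0.01 (SE 0.0321, adjusted p = 0.896). The nicotine effects were -0.02 for Chd6 (SE 0.0345, adjusted p = 0.931) and 0.01 for Chd8 (SE 0.0321, adjusted p = 0.944). Neither gene had a pair of groups without overlap.

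Chd7, which is needed for the growth of cerebellar granule cells, was the member that varied most within groups. It stood at 61.2, 64.2, 52.2 and 29.8 CPM in WW and at 58.2, 56.0, 37.5 and 59.8 CPM in NW. It ran from 54.6 to 63.1 CPM in Water-Ethanol and from 55.8 to 64.2 CPM in NE. The coefficient of variation was 30.0% in WW and 19.6% in NW, against 6.51% in Water-Ethanol and 5.78% in NE. The low values were those of WW mouse 21 and NW mouse 10, the same libraries in which the cerebellar granule genes were low.

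The ethanol effect on Chd7 was 0.20 (SE 0.117, adjusted p = 0.304), the next highest estimate after Chd2, and did not pass. Without both mice it was 0.04 (SE 0.0471, adjusted p = 0.589), and with the granule score as a covariate 0.05 (SE 0.0320, adjusted p = 0.334). Both steps lowered the estimate and its error. In Water-Ethanol against WW it was 0.23 (SE 0.171, adjusted p = 0.497), and 0.04 (SE 0.0680, adjusted p = 0.795) without WW mouse 21.

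Among the other 14 mice, with group means removed, log2 CPM of Chd7 still followed the granule score, a mean of logs and not the summed CPM (Pearson's r = 0.913, permutation p = 5e-05, adjusted over the 9 members 0.00045). Spearman's rho was 0.864 (permutation p = 0.00013, adjusted 0.00117), and r was 0.873 without the 2 mice farthest from the median. For Chd6, r was 0.668 (adjusted permutation p = 0.0425) but rho was 0.512 (adjusted 0.218) and r fell to 0.374 without the 2 farthest mice, so that relation rests on those mice. For Chd2, r was 0.397 (adjusted 0.241) and -0.02 without the 2 farthest mice. The remaining 6 members had adjusted permutation p-values of 0.105 to 0.680 for r.

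**Figure D4:**
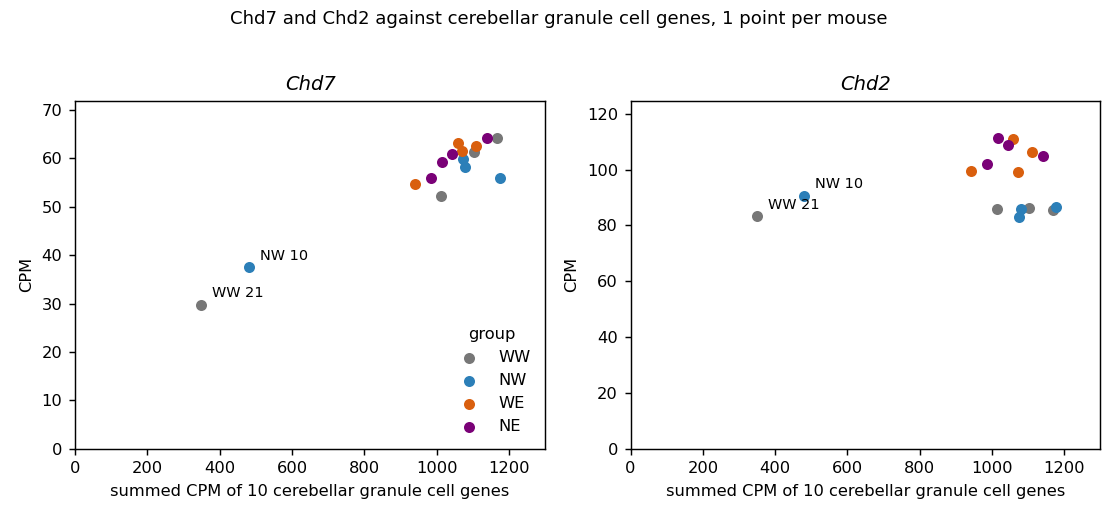
Chd7 (left) and Chd2 (right) in CPM against the summed CPM of 10 cerebellar granule cell genes, 1 point per mouse, both axes from 0. WW 21 and NW 10, at 349 and 481 on the horizontal axis, have the lowest Chd7 values (29.8 and 37.5 CPM), while their Chd2 values (83.3 and 90.7 CPM) lie with those of the other mice without ethanol.

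Levels of different genes were compared only on FPKM, which is scaled by transcript length. Over all 16 mice Chd3 was highest at 92.5 ± 3.91 FPKM (SD, n = 16), followed by Chd4 at 38.5 ± 1.75, Chd5 at 32.8 ± 1.90, Chd8 at 15.9 ± 0.631 and Chd6 at 12.7 ± 0.598 FPKM. Chd2 came sixth at 11.2 ± 1.31 FPKM, then Chd9 at 9.24 ± 0.581, Chd7 at 5.06 ± 0.869 and Chd1 at 4.96 ± 0.261 FPKM. The 3 NuRD motors thus took the top places in all 4 groups. The same order was found with CPM divided by exon length.

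Some neighbours in this order were not apart beyond their spread. Chd4 and Chd5 overlapped over all mice, although Chd4 was above Chd5 in each of the 16. Chd7 was above Chd1 in 12 of 16 mice and their means lay within 1 SD. Chd2 shifted within its place: in WW and NW it ran from 9.72 to 10.5 FPKM, below every Chd6 value there (11.8 to 13.8 FPKM). In Water-Ethanol it ran from 11.7 to 13.2 FPKM, which overlapped Chd6 at 12.2 to 13.6 FPKM, and in NE from 11.8 to 13.3 FPKM, which overlapped Chd6 at 11.9 to 13.2 FPKM. Chd2 was above Chd6 in 1 of 16 mice, an NE mouse, and above Chd9 in all 16.

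**Figure D5:**
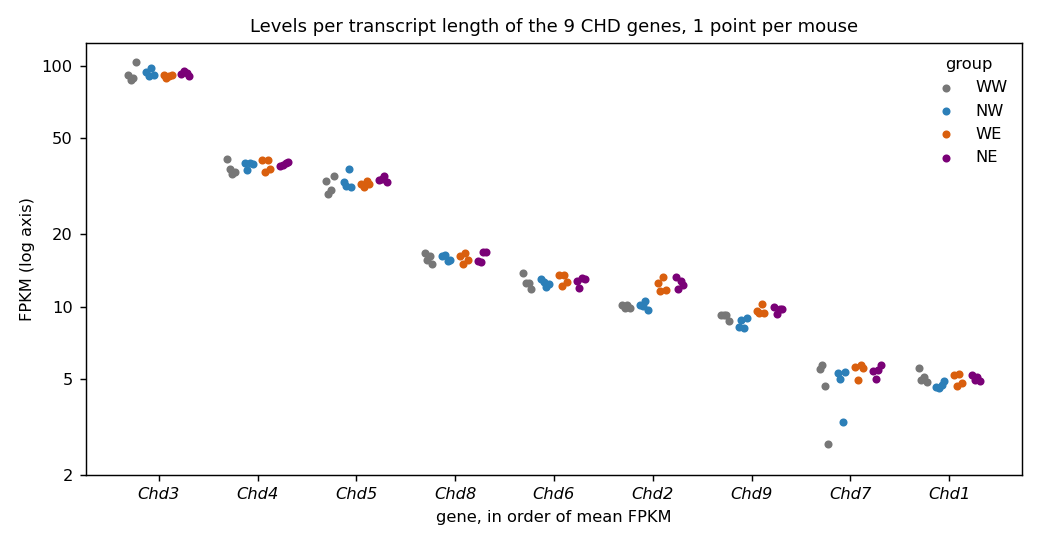
FPKM of the 9 CHD genes on a log axis, ordered by their mean, with 1 point per mouse and 1 colour per group. The NuRD motors Chd3 (92.5), Chd4 (38.5) and Chd5 (32.8 FPKM) lead, and the Chd2 points of both ethanol groups reach the range of Chd6.

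Over the family as a whole, median estimates were set beside those of all genes, with no test of the difference. In NW against WW, 0 of 9 members passed (background 0%, 0 of 15344 genes by edgeR, 8.44% at an unadjusted p under 0.05 and 121 genes by DESeq2), and their log2 fold changes ran from -0.12 to 0.06 with a median of 0.01. In Water-Ethanol against WW, 0 of the 8 members other than Chd2 passed (background 0.457%, 70 of 15323 genes, and 19.3% at an unadjusted p under 0.05), with a median of 0.02 against 0.00 over all genes. In NE against WW, 0 of these 8 passed (background 0.313%, 48 of 15313 genes, and 17.5% at an unadjusted p under 0.05), with a median of 0.04 against 0.00 over all genes. Water-Ethanol and NE were compared with the same WW mice. In NE against NW, 0 of 8 passed (background 0%, 0 of 15361 genes by edgeR, 11.9% at an unadjusted p under 0.05 and 92 genes by DESeq2), with a median of 0.01 against 0.00 over all genes. At an unadjusted p under 0.05, the only one of the 8 was Chd9, in NE against WW and in NE against NW, and DESeq2 called none of the 8 in these pairwise comparisons.

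Members were also sorted by whether all mice of a group lay above all mice of another. Chd2 was so in NE against NW, in NE against WW and in Water-Ethanol against WW. This is a description only, since that difference chose the family. Of the 8 other members, 1 (Chd9) had all NE mice higher in NE against NW, where 4.13% of all genes were so. In NE against WW it was again 1 of the 8, Chd9 (5.17% of all genes), and in Water-Ethanol against WW 0 of the 8 (5% of all genes). In NW against WW there was none (1.92% of all genes higher, 4.06% lower). No member had a first-named group wholly below the other in any of the 5 pairwise comparisons, where 5.8% (Water-Ethanol against WW), 5.51% (NE against WW), 1.45% (NE against Water-Ethanol) and 3.28% (NE against NW) of all genes did. For nicotine over all 16 mice, 0 of 9 members passed, with none at an unadjusted p under 0.05 and none called by DESeq2. Of all 15592 genes 0 passed by edgeR, 10.3% had an unadjusted p under 0.05, and DESeq2 called 98, so 9 genes are few against these shares. The estimates of the members ran from -0.05 for Chd1 to 0.06 for Chd5. For the interaction, 0 of 9 passed, as did 0 of 15592 genes by edgeR (6.76% had an unadjusted p under 0.05, and DESeq2 called 1).

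Genes that work with the CHD proteins were read from lists. Of the 12 NuRD subunits other than CHD proteins, 0 passed in the ethanol effect in edgeR, where 4.5% of all genes did, and 5 of the 12 had an unadjusted p under 0.05, where 22.9% of all genes did, with a median of 0.03 against 0.00 over all genes. The 2 with the smallest p were the scaffold gene Gatad2a (0.13, SE 0.0378, adjusted p = 0.0604) and the deacetylase gene Hdac2 (-0.09, SE 0.0280, adjusted p = 0.0836). Of 15 CHD partners outside NuRD, among them histone H3.3 genes and elongation factors, 0 passed and 5 had an unadjusted p under 0.05 (4.5% and 22.9% of all genes, median -0.01). H3f3b, which encodes H3.3, was at -0.18 (SE 0.0638, adjusted p = 0.103), and Parp1, a poly(ADP-ribose) polymerase, was at 0.07 (SE 0.0281, adjusted p = 0.124).

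Of 11 genes listed as methyltransferases or demethylases of lysine 4 on histone H3, whose methylation Chd1 reads, 0 passed and 3 had an unadjusted p under 0.05 (4.5% and 22.9% of all genes, median 0.04). Kmt2e was at 0.10 (SE 0.0372, adjusted p = 0.122) and Kmt2d at 0.16 (SE 0.0671, adjusted p = 0.167). No gene of the NuRD list, of the list of partners outside NuRD or of this list was called. With 4.5% of all genes called, lists this short can hold none, so the absence says little about them.

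Among 18 tested ATPases of the SNF2 type outside the CHD family, 1 passed in the ethanol effect and 5 had an unadjusted p under 0.05 (4.5% and 22.9% of all genes, median -0.02). This was Chd1l, which shares its name with the family but has a macrodomain that binds poly(ADP-ribose) in place of chromodomains. It stood at 9.87 ± 0.515 CPM in WW and 11.1 ± 0.895 CPM in NW, against 9.35 ± 0.190 CPM in Water-Ethanol and 8.66 ± 0.423 CPM in NE (SD, n = 4 each). It fell by 0.21 on the log2 scale with ethanol (SE 0.0481, adjusted p = 0.0196), with 5 of the 8 ethanol mice below all mice without ethanol, where 1.56% of all genes were called lower. In the single comparisons none passed: NE against NW was at -0.35 without overlap (SE 0.0818, adjusted p = 0.202), NE against WW at -0.19 without overlap (SE 0.0705, adjusted p = 0.208) and Water-Ethanol against WW at -0.07 with overlap (SE 0.0658, adjusted p = 0.572). Of all genes, 3.28% had NE wholly below NW and 5.51% had NE wholly below WW. The interaction of Chd1l was -0.27 (SE 0.0962, unadjusted p = 0.0109, adjusted p = 0.678). Smarcal1, an annealing helicase, was at -0.09 (SE 0.0270, adjusted p = 0.0537).

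Of 19 accessory subunits of the SWI/SNF and ISWI remodellers, 1 rose and 2 fell in the ethanol effect, where 2.94% of all genes rose and 1.56% fell, and 10 had an unadjusted p under 0.05, where 22.9% of all genes did (median 0.02). Arid2, a subunit of the PBAF form of SWI/SNF, rose by 0.16 (SE 0.0259, adjusted p = 0.00317). For Arid2 all 8 ethanol mice lay above all 8 others, as for 0.443% of all genes. Its group means were 76.6 ± 1.68 CPM in WW, 73.2 ± 2.54 in NW, 82.3 ± 2.51 in Water-Ethanol and 85.0 ± 1.82 CPM in NE. The core subunit Smarcb1 fell by 0.15 (SE 0.0339, adjusted p = 0.0200) and Smarcd1 fell by 0.12 (SE 0.0283, adjusted p = 0.0240). In the other 7 comparisons 0 genes of any of these lists passed. Of all genes, 0.457% passed in Water-Ethanol against WW, 0.313% in NE against WW and 0% in the rest. The absence thus says little about these lists.

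The genes whose log2 CPM followed Chd2 most closely over the 16 mice were Phf21a (Pearson's r = 0.945), Fam53c (0.937), Med13l (0.935), Zfp609 (0.934) and Myo1a (0.930). All 5 were higher in every ethanol mouse than in every other mouse, as were 0.443% of all genes. These values of r describe 16 libraries that share the split by ethanol. Phf21a encodes a reader of unmethylated histone H3, and Med13l a subunit of the Mediator kinase module. With group means removed, the closest were Snora31 (0.914), Ubr2 (0.888), Olfr613 (0.885), Ankhd1 (0.877) and Ap4e1 (0.854), so the 2 sets of 5 had no gene in common. Snora31 had only 5 to 22 raw counts per mouse.

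Within the family, the 36 pairs of members had a median r of 0.341 once group means were removed, and 25 pairs were above 0. The highest was Chd6 with Chd8 (0.867) and the lowest Chd3 with Chd7 (-0.90). Without WW mouse 21 and NW mouse 10 the median was 0.428 and 32 pairs were above 0. The pair Chd3 and Chd7 was then at -0.04, while Chd6 and Chd8 stayed at 0.825. The 8 pairs with Chd2 had a median of 0.384 in all 16 mice, with Chd1 highest (0.578), then Chd6 (0.541), and Chd3 lowest (-0.08). In the 14 mice their median was 0.427, with Chd6 highest (0.681), Chd1 at 0.552 and Chd3 lowest (-0.31). The points of all pairs share libraries, and these values carry no test.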

How the data were processed

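Whole-brain RNA of 16 mice, 4 per group, was sequenced as single reads. Per the methods and the submitters' processing notes, reads were trimmed with Trimmomatic 0.32 and aligned with TopHat2 to mm10. The authors deposited whole counts per gene, without normalization, and the counting program and its strand setting are not given in the sources used here. The labels name an unstranded library kit and the methods a stranded one, so genes that overlap on opposite strands are uncertain. Chd2 and 1810026B05Rik lie on the same strand, where neither kit separates reads of the shared exon bases. The authors also deposited FPKM from the Cufflinks tools, scaled by transcript length and depth.

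Counts were tested with edgeR 4.0.16 in R 4.3.3 (TMM factors, filterByExpr, quasi-likelihood test, Benjamini-Hochberg adjustment, threshold 0.05). Pairwise comparisons used the mice of those 2 groups, and the ethanol, nicotine and interaction effects all 16. SEs were derived from the F statistic. Correlation p-values came from 100000 permutations, two-sided, which shuffled the residuals freely across groups. They make no allowance for the group means already removed, so they can be too small. Alternatives were RLE factors, DESeq2 1.42.0, other filters, limma 3.58.1 on log2(FPKM + 1) and log2(FPKM + 0.1) with mean FPKM of at least 0.1, a GC correction, a cerebellar score as covariate and leaving out mice. Leaving out WW mouse 21 and NW mouse 10 together was chosen after seeing the data. The edgeR script was tested on simulated data.

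The members and lists were chosen with earlier results of these data known. Named were all members, 1810026B05Rik, the nearest tested genes beside Chd2, the 5 genes most like Chd2 on each scale and, of each list, called genes and the 2 of smallest p for ethanol. One listed ATPase gene was not used here.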

Additional observations from a re-analysis of the deposited data

Results flagged for a closer look

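In 40 groups of 4 mice (9 members and 1810026B05Rik in each group), 3 held a mouse whose gap to its nearest neighbour, divided by the range, was above Dixon's critical value for 4 samples. Chance alone flags about 1 in 20 groups. Chd2 in WW mouse 21 was at 83.3 CPM, below the other WW mice at 85.6 to 86.1 CPM, and Chd9 in the same mouse was at 98.5 CPM, below 104.7 to 105.4 CPM. Chd5 in NW mouse 10 was at 349.8 CPM, above the other NW mice at 291 to 300.8 CPM. These are the libraries with little cerebellar granule signal (349 and 481 summed CPM). The part of that signal in these values was not tested.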

How the results depend on the processing

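No paired analysis was possible because the groups share no replicate numbers. For Water-Ethanol against WW and NE against WW, the count of CHD members called was 1 and became 0 under both limma fits, since Chd2 (0.27 to 0.33) then had adjusted p-values of 0.103 and 0.113 and of 0.0577 and 0.0609. Leaving out 1 mouse gave 0 to 1 member in each, with adjusted p-values for Chd2 of 0.0101 to 0.130 (lost without WW mouse 19 or 20 or any Water-Ethanol mouse) and of 0.0127 to 0.0858 (lost without WW mouse 19 or 20 or NE mouse 4). In NE against NW the count rose from 0 to 1 with DESeq2 and with all 16 mice in one fit (Chd2, adjusted p = 7.38e-05 and 0.0145). In the ethanol effect it stayed at 2 in every other setting and was 1 to 2 when mice were left out. The cause was not tested, and the Chd2 p-values are no support, since this difference chose the family. The estimate for Chd2 in the 4 ethanol comparisons kept its direction throughout, from 0.26 to 0.35. Of 1449 member estimates under alternatives, 128 changed sign, all of them called in neither fit, with a size of at most 0.0594 before the change and 0.16 after it (Chd7, NW against WW, without WW mouse 21). By Spearman's rho 1 of the 5 genes most like Chd2 was shared with the first list (Phf21a). Genes called were 702 for ethanol (DESeq2 1073, granule score 1068, without mice 280 to 1061), 70 for Water-Ethanol against WW (DESeq2 605, no filter 143, GC 37, limma 0, granule score 709, all mice 28, without mice 0 to 797), 48 for NE against WW (DESeq2 508, GC 5, limma 1, granule score 340, without mice 0 to 283), 0 for NW against WW (DESeq2 121, all mice 112), 0 for NE against NW (DESeq2 92, all mice 57) and 0 for nicotine (DESeq2 98, without mice 0 to 49). Errors cover the spread between 4 mice per group, and the error of the Chd7 ethanol effect (0.117) limits what could be detected in that gene.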
